A study of Mus musculus with 12 samples.

Results

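RNA levels of Eif4g2 knockout organoids were compared with those of wild-type organoids, coding region by coding region, and the differences were described by coding length and by abundance. The comparison takes the 2 knockout (KO, Eif4g2-/-) and 2 wild-type (WT, Eif4g2+/+) RNA-seq libraries, 4 of the 12 libraries of a study of mouse small-intestinal organoids. The other 8 libraries are the 2 heterozygous (Het, Eif4g2+/-) RNA-seq libraries and the 6 ribosome profiling libraries of the same genotypes. All genotypes were cultured for 3 days with an epithelial growth factor, R-spondin-1 and Noggin, and all, WT included, received 4-OHT at 0.5 µM for 24 hours. 4-OHT is the ligand that switches on tamoxifen-inducible Cre recombinases, and the labels name no Cre driver or promoter. The labels also do not say whether the numbered organoids behind the libraries came from separate animals, so the p-values measure only the spread between these samples, which may be technical.

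Eif4g2, also called DAP5, belongs to the eIF4G family of translation initiation factors but lacks the part that binds the cap-binding protein eIF4E, and it is known for initiation on selected mRNAs outside the usual cap-dependent route. Small-intestinal organoids are cultures of gut epithelium that hold stem cells and their differentiated progeny. RNA-seq counts report how much of an mRNA is present, whereas ribosome footprints report how many ribosomes sit on it, and a factor that acts on initiation can leave RNA levels as they are. The series title names histone modifiers and intestinal stem cells as the interest of the study. In bulk cultures such as these, fewer cells of a type and less RNA per cell cannot be told apart.

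The unit of the comparison was a coding region with its own pattern of counts. Of 278268 transcript rows, 66316 had a coding length above 0, and 63239 of these had at least 1 count in some library. Rows with the same counts in all 12 libraries were taken as 1 unit, which gave 45864 units, of which 43254 had an RNA count and 12356 passed the filter on low counts and were tested. Length is given in codons, as the deposited numbers were read; the files do not name the unit. Isoforms of a gene share reads, so units are not independent, and a second grouping, in which neighbouring rows with matching profiles were joined into sets, is given beside the main counts. The 12356 tested units fell into 7515 such sets. The files pair no transcript with a gene name, so the level of Eif4g2, the markers of intestinal cell types and named gene groups were not analysed here, and no library's genotype could be set against the targeted gene.

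RNA-seq was shallow and its depth moved with genotype. Totals over units were 385621 and 333071 counts for the WT libraries, 779355 and 937960 for KO, and 672564 and 479956 in Het. Both KO totals were above both WT totals, so depth and genotype cannot be told apart in the counts as deposited, and values are given as counts per 1000000 counts of the library (CPM). With RNA libraries thinned to the smallest total, 1348 units were called in place of the 2153 described next.

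About as many units rose as fell in KO. edgeR's quasi-likelihood test with Benjamini-Hochberg adjustment called 2153 of 12356 units at an adjusted p under 0.05, which is 17.4% of those tested. Of these, 1000 were higher in KO (8.09% of those tested) and 1153 were lower (9.33%). The median log2 change was 1.06 among the higher and -1.08 among the lower, against 0.00 over all units tested. A change of at least 1 on the log2 scale was reached by 551 of the higher and 645 of the lower units, and a change of at least 2 by 82 and 106. The higher calls came from 616 joined sets and the lower calls from 700. In CPM, both KO libraries lay above both WT libraries in all 1000 higher units, and below them in 1144 of the 1153 lower units. Over all units tested the groups did not overlap in 58.7%, with KO above in 31.9% and below in 26.8%.

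The number of calls and its split depended on the settings. DESeq2 called 607 units (4.91% of those tested), 252 higher and 355 lower, and all 607 were edgeR calls in the same direction. Without the deeper WT library there were 1016 calls and without the shallower WT library there were 1129. Without the count filter, 64.7% of 1787 calls were higher in KO, against 46.4% of the 2153, and with at least 10 counts in every WT and KO library 53.8% of 1563 were. Those filters changed the scaling between libraries: the same units had log2 changes that were higher by a median of 0.16 without the filter and by 0.11 with the minimum of 10 counts.

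Units that fell had longer coding regions, at the median, than units that rose. The median coding length was 764 codons among lower units and 525.5 among higher units, against 579 over all units tested. Regions of 1000 codons or more made up 38.1% of the lower units, 25.2% of the higher units and 22.7% of all tested. Regions under 400 codons made up 24.2% of the lower, 37.1% of the higher and 31.9% of all tested. The scatter of change against length shows calls in both directions at most lengths, with the highest and lowest lengths mostly on the lower side.

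**Figure D1:**
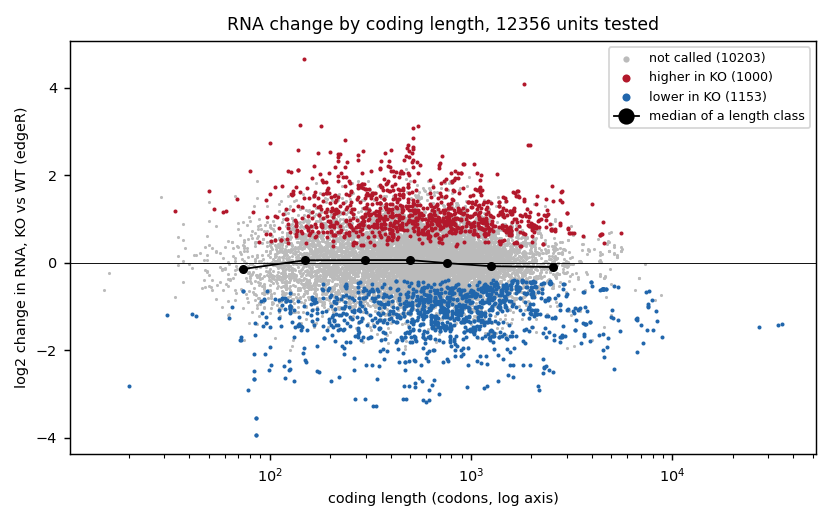
The log2 change in RNA between KO and WT (y axis) is plotted against coding length in codons (x axis, log scale) for each of the 12356 units tested, with 1000 higher calls in red, 1153 lower calls in blue, and black points for the median of each length class. The class medians lie between -0.14 and 0.06, while nearly all calls beyond 5000 codons are lower in KO.

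The 7 length classes differed in which direction prevailed. Among regions of 2000 codons or more, 560 units were tested and 155 were lower (27.7%), against 61 higher (10.9%). From 1000 to under 2000 codons, 284 of 2247 were lower (12.6%) and 191 were higher (8.50%). From 600 to under 1000 codons the shares were 8.65% lower and 6.43% higher among 3155 units. The direction turned below that length. From 400 to under 600 codons, 7.11% of 2447 units were higher and 6.62% were lower. From 200 to under 400 codons, 248 of 2433 were higher (10.2%) and 164 were lower (6.74%). From 91 to under 200 codons, 114 of 1300 were higher (8.77%) and 93 were lower (7.15%). The shortest regions, of 1 to 90 codons, went the other way in calls, with 9 of 214 higher (4.21%) and 22 lower (10.3%). The 22 came from 17 joined sets. Of them, 8 from 4 joined sets were among 12 units with 30000 ribosome footprints or more. As a share of library counts this class held 1.59% and 1.64% in WT and 1.69% and 1.70% in KO, so its share was not lower in KO.

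**Figure D2:**
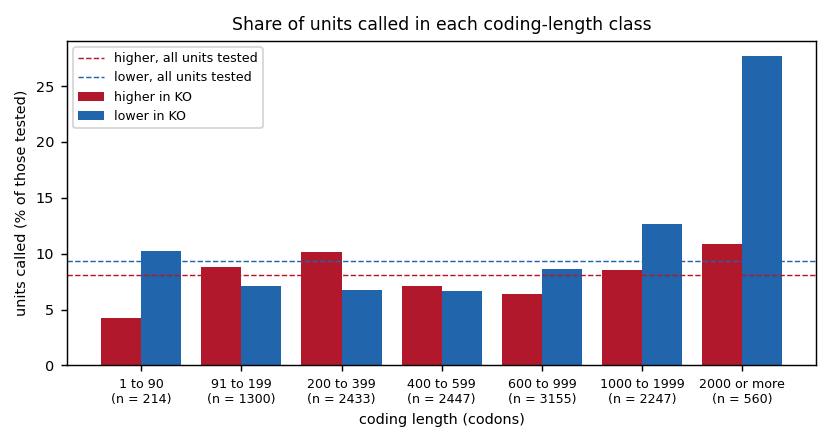
Bars give the percentage of tested units called higher (red) or lower (blue) in KO in each coding-length class, with the number tested under each class and dashed lines at the percentages over all units (8.09% and 9.33%). The lower bar reaches 27.7% at 2000 codons or more, and the higher bar exceeds the lower one in the 3 classes from 91 to under 600 codons.

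Under each of the 13 settings run (the one above and 12 alternatives), lower calls outnumbered higher calls at 2000 codons or more, and higher calls outnumbered lower calls under 400 codons. The classes between turned in some settings. From 1000 to under 2000 codons the calls were 202 higher and 131 lower without the count filter and 191 and 181 with at least 10 counts in every WT and KO library, and from 600 to under 1000 codons they were 229 and 151 without the filter. From 400 to under 600 codons lower calls were the more numerous by DESeq2 (50 against 31) and with either WT library left out. From 1 to 90 codons, DESeq2 called 1 unit lower and 0 higher, and higher calls were the more numerous without the filter (18 against 11) and with at least 10 counts (7 against 6). At 2000 codons or more the margins differed: the counts were 60 lower and 22 higher by DESeq2, 92 and 72 without the count filter, and 96 and 70 with at least 10 counts in every WT and KO library. Without the deeper WT library they were 75 and 33, and without the shallower one 94 and 27. Under 400 codons, the 371 higher and 279 lower calls became 108 and 77 by DESeq2 and 202 and 172 with 1 row per joined set. Without the deeper WT library they were 186 and 128, and without the shallower one higher calls again outnumbered the 153 lower calls. The excess under 400 codons differed with the mean count per RNA library. With a mean under 15 counts, 59 were higher and 82 lower. From 15 to under 30 counts they were 94 and 75, and from 30 to under 60 they were 65 and 60. From 60 to under 120 counts they were 59 and 35, and at 120 or more 94 and 27. These means are of raw counts, to which the deeper KO libraries add more.

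A small difference in the length of the whole RNA pool accompanied these calls. Weighted by counts, the mean log2 coding length was 9.41 and 9.39 in WT, 9.32 and 9.32 in KO, and 9.32 and 9.36 in Het. Both KO values lay below both WT values, by a mean of 0.08. Regions of 200 to under 400 codons held 17.2% and 17.4% of counts in WT and 18.7% and 18.9% in KO. Regions of 91 to under 200 codons held 9.68% and 9.63% in WT and 10.9% and 10.5% in KO. The share of the shorter classes was thus above WT in both KO libraries. Regions of 600 to under 1000 codons held 22.3% and 22.8% in WT and 21.4% and 21.6% in KO. Regions of 1000 to under 2000 codons held 21.9% and 21.5% in WT and 20.9% in each KO library. At 2000 codons or more the shares were 13.3% and 12.7% in WT, 12.0% and 12.1% in KO, and 11.4% and 12.0% in Het. The WT and KO values did not overlap in any of these 5 classes. An exact two-sided permutation test over the libraries gave p = 0.333 for each of the 8 measures taken (7 shares and the mean length), which is the smallest value that 2 against 2 libraries allow, and 0.333 after Benjamini-Hochberg adjustment.

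Across single units the relation of change to length was weak. Spearman's rho between log2 change and coding length was -0.07 over the 12356 units, and -0.07 to -0.05 over the 4 pairs of a KO and a WT library. It was -0.14 without the count filter and -0.02 with at least 10 counts in every WT and KO library. The units share libraries and reads, and the value is a description.

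Many of the lower calls among the longest regions were units with few ribosome footprints. Of the 560 tested units of 2000 codons or more, 98 had under 300 footprints over the 6 ribosome profiling libraries, and 68 of these were lower and 0 higher. Of these 98, 56 reached the cutoff of the count filter in both WT libraries but not in both KO libraries and 3 did the reverse, so their split is partly set by the filter; without it, 45 of 285 such units were lower and 0 higher. The other 462 had 87 lower units from 42 joined sets and 61 higher units from 35, and a median of -0.02. Of the 45 tested units of 5000 codons or more, 27 were lower and 1 was higher, with a median log2 change of -0.85 and a median of 187 footprints, against 1466 over all units tested. The 27 lower units came from 14 joined sets. Among the 462 units with 300 footprints or more, lower calls were thus 18.8% and higher calls 13.2%. The direction was not the same throughout these 462. With 300 to under 3000 footprints, 44 of 200 were lower and 19 higher. From 3000 to under 30000 the order turned, with 36 of 229 higher and 28 lower. With 30000 or more, 15 of 33 were lower, from 5 joined sets, and 6 were higher.

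Over units of all lengths, the prevailing direction also differed with footprint number. Of 10921 units with under 30 footprints, 158 passed the filter on low counts, and 84 of these were lower and 0 higher. The filter favoured that direction: 97 of the 158 reached its cutoff of 17.4 CPM in both WT libraries but not in both KO libraries, and 3 did the reverse, so the split among those that passed is a description only. Without the filter, 9756 such units were tested, of which 98 were lower and 0 higher. With 30 to under 300 footprints, 157 of 1285 were lower and 40 higher. The filter favoured that direction here too, since more units reached its cutoff only in both WT libraries than only in both KO libraries. This split is therefore partly set by the filter. Without the filter, 105 of 11535 such units were lower and 67 higher. With 300 to under 3000, 543 of 7164 were lower and 444 higher. From 3000 to under 30000 footprints the order turned, with 433 of 3437 higher and 298 lower. With 30000 or more, 83 of 312 were higher and 71 lower.

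Raw RNA counts on units with few footprints differed far less between libraries than the library totals did. The 10921 units with under 30 footprints summed to 11234 and 11738 RNA counts in WT, 10521 and 15358 in KO, and 14660 and 11881 in Het. As a share of the library they made up 2.91% and 3.52% in WT, 1.35% and 1.64% in KO, and 2.18% and 2.48% in Het. The shares were lower in deeper libraries, apart from the order of the 2 KO libraries. The part of these counts in the lower calls was not tested in a model; with the fit restricted to units with at least 20 footprints in each ribosome profiling library, 1936 of 10780 units were called, 899 higher and 1037 lower. At 2000 codons or more that fit called 104 of 466 units lower (22.3%) and 58 higher (12.4%).

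**Figure D3:**
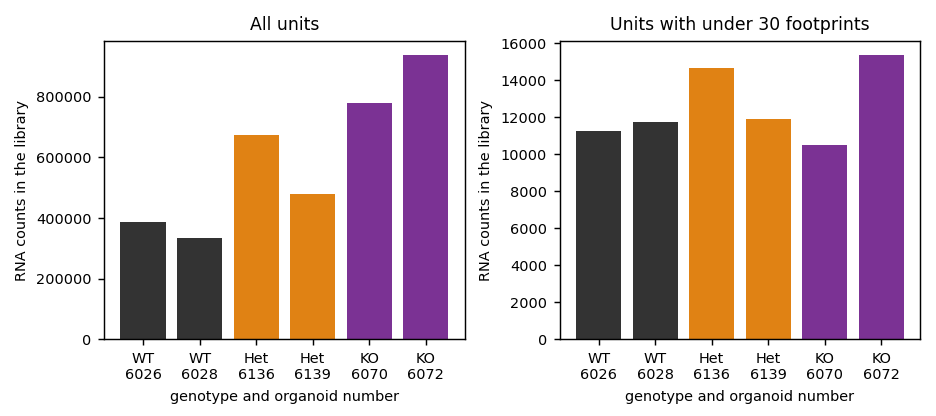
Bars give the RNA counts of each of the 6 RNA-seq libraries over all units (left) and over the 10921 units with under 30 footprints in the ribosome profiling libraries (right), coloured by genotype. The totals over all units run from 333071 to 937960, while those of the footprint-poor units run from 10521 to 15358.

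Whether change followed abundance per codon depended on the filter. Spearman's rho between log2 change and mean CPM per codon was 0.00 over the 12356 units, and -0.02 to 0.01 over the 4 library pairs. It was 0.13 over the 6231 units with at least 10 counts in every WT and KO library, 0.08 without the count filter, and -0.05 in units with at least 20 footprints in each ribosome profiling library. In 5 equal classes of CPM per codon, the median log2 change lay between -0.03 and 0.04. The share called rose towards the abundant end, from 12.9% in the lowest class and 10.9% in the next to 15.1%, 17.7% and 30.4% in the others. In the lowest class 109 of 2472 units were higher and 211 lower. In the highest class 360 of 2471 were higher and 391 lower. Taking the level from the Het libraries, which are not in the contrast, gave 13.5% called in the lowest and 28.7% in the highest class.

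How many units were called followed the number of counts. With a mean under 15 counts per RNA library 8.82% of 4286 units were called, and with 120 or more 45.2% of 794 were. The median standard error fell from 0.51 to 0.16 on the log2 scale between these classes, and the smallest change called went from 1.14 to 0.38. The median log2 change of called units was accordingly 1.90 and -1.70 in the first class and 0.72 and -0.61 in the last. Among units with a mean under 15 counts no change as small as 1 on the log2 scale, or 2-fold, was called. In simulated counts of this comparison over 12356 units, with 200 changed where the mean was 20 counts or more, edgeR recovered 59 of 100 changes of 2-fold and 100 of 100 of 4-fold, with 4 false calls. The simulated means followed library totals and the spread was estimated from these libraries. The run therefore says nothing of false calls among units whose raw counts did not follow depth.

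**Figure D4:**
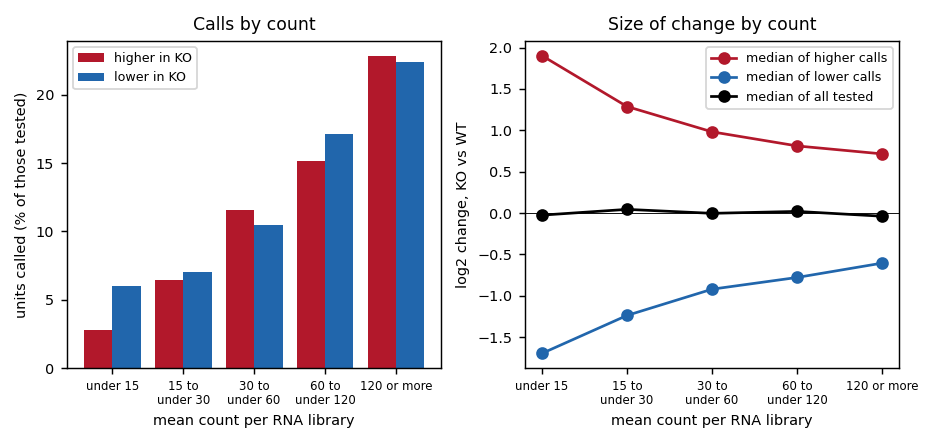
The left panel gives the percentage of tested units called higher (red) or lower (blue) in KO by mean count per RNA library, and the right panel the median log2 change of higher calls, lower calls and all units tested (black) in the same classes. The share called rises from 8.82% to 45.2% while the median size of a call shrinks, and the median of all units stays near 0.

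Among regions that were both abundant and short, more units rose than fell. Of 214 units with under 400 codons and a mean of 120 counts or more, 94 were higher in KO (43.9%) and 27 were lower (12.6%), with a median log2 change of 0.34. The mean is of raw counts, to which the deeper KO libraries add more, so the cutoff admits units raised in KO more readily. How much of the excess this makes up was not tested, and every setting kept the cutoff. The higher units came from 53 joined sets and the lower from 18. In this class 153 of the 214 changes were above 0, and called changes ran from -1.42 to 2.12. Higher calls outnumbered lower calls here under all 13 settings: 66 and 17 by DESeq2, 49 and 15 with 1 row per joined set, and 85 and 27 in units with footprints. Without the deeper WT library there were 70 and 17, and without the shallower KO library 87 and 17.

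Abundant regions of other lengths had more lower than higher calls, though not in every setting. From 400 to under 1000 codons, 13.6% were higher and 26.1% lower, with a median of -0.16, and with at least 10 counts in every WT and KO library each direction had 38 calls. At 1000 codons or more, 60 of 381 were higher and 99 lower, with a median of -0.09, but the order turned to 78 higher and 41 lower without the count filter, 85 and 64 with at least 10 counts in every WT and KO library, and 47 and 29 without the deeper WT library. Among the scarcest long regions, with a mean under 15 counts and 1000 codons or more, 9 of 525 were higher and 82 lower, with a median of -0.24. A ceiling on raw counts admits units lowered in KO more readily, so this split is a description only.

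Single units show the sizes behind these counts. Units for naming had to be called, hold a mean of at least 30 counts over the 4 libraries and not overlap between genotypes. They were ranked by the size of the change. Of the calls 1278 qualified, 664 of the 1000 higher and 614 of the 1153 lower. The mean is of raw counts, so units raised in the deeper KO libraries qualify more readily. The split and the larger leading rises are therefore shaped by the rule. The most raised was transcript ENSMUST00000034346.15, with a coding region of 549 codons. It had 5 and 2 counts in the WT libraries, 55 and 99 in KO, and 16 and 17 in Het, or 13.0 and 6.00 CPM in WT, 70.6 and 106 in KO, and 23.8 and 35.4 in Het. Het lay between the homozygotes. The log2 change was 3.12 (SE 0.42, edgeR adjusted p 6.03e-08), and it rests on 7 counts in WT; without the deeper WT library it was 3.82. Its footprints averaged 381 ± 92.2 CPM in WT against 914 ± 103 for KO (SD, n = 2), which is 1.25 on the log2 scale (edgeR adjusted p 2.37e-06). The next, ENSMUST00000164182.3 (516 codons), shared these reads, with the same counts apart from 95 in the deeper KO library and a change of 3.78 without the deeper WT library, and is not a separate finding.

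The most lowered was transcript ENSMUST00000009689.11, of 659 codons. Its level was 140 and 99.1 CPM in WT, 30.8 and 32.0 in KO, and 117 and 113 in Het. Het lay within the range of WT, and KO below both. The log2 change was -1.98 (SE 0.27, edgeR adjusted p 5.32e-08), from 54 and 33 WT counts and 24 and 30 KO counts. Its footprints went the same way, from 97.6 ± 9.06 CPM in WT to 38.5 ± 0.54 for KO (SD, n = 2), or -1.33 on the log2 scale (edgeR adjusted p 2.06e-09). The second, ENSMUST00000211623.2, of 366 codons, was of another kind. It had 40 and 50 RNA counts in WT, 18 and 39 in KO, and 45 and 44 in Het, and between 0 and 3 footprints in each ribosome profiling library. In CPM this was 104 and 150 in WT, 23.1 and 41.6 in KO, and 66.9 and 91.7 in Het, a log2 change of -1.97 (SE 0.27, edgeR adjusted p 1.16e-07), and -2.77 with libraries thinned to the smallest total. It belongs to the units with few footprints described above, whose raw counts did not follow library depth.

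Changes of this kind ran across sizes. The units given next lead their length class under the same rule once the units named by ID, and any unit in a joined set already described, are left out. Among the higher units, a region of 1923 codons stood out, at 301 and 210 CPM in WT, 1640 and 1822 in KO, and 434 and 369 in Het. Both KO libraries were far above the other 4. The rise was 6.49-fold (SE 0.15 on the log2 scale, edgeR adjusted p 2.64e-23), from 116 and 70 WT counts to 1278 and 1709 KO counts. Its footprints averaged 233 ± 8.70 CPM in WT and 209 ± 2.25 for KO (SD, n = 2), and their log2 change of -0.16 was not called. A region of 139 codons had 106 and 78.1 CPM in WT, 436 and 404 in KO, and 198 and 129 in Het. This is a log2 change of 2.12 (SE 0.20, edgeR adjusted p 4.26e-13). In both units Het lay above WT and below KO.

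The other higher units of this kind were smaller in count. A region of 705 codons had 3 and 10 counts in the WT libraries and 59 and 99 in KO, a log2 change of 2.27 that became 1.57 without the deeper WT library and 3.48 without the shallower one. A region of 494 codons had 13.0 and 18.0 CPM in WT and 68.0 and 61.8 in KO, a log2 change of 2.01. In both the footprints rose as well, by 1.25 and 0.91 on the log2 scale (edgeR adjusted p 1.16e-09 and 1.61e-08). A region of 289 codons had 23.3 and 18.0 CPM in WT and 93.7 and 59.7 in KO, a 3.47-fold rise. A region of 2781 codons, from the longest class, had 36.3 and 51.0 CPM in WT and 115 and 128 in KO, a log2 change of 1.44. In the shortest class a region of 53 codons had 28.5 and 33.0 CPM in WT and 70.6 and 78.9 in KO, a log2 change of 1.24. That call was lost with DESeq2, with thinned libraries and without the deeper WT library.

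Among the corresponding lower units the sizes were alike between 93 and 2026 codons. A region of 585 codons had 244 and 237 CPM in WT, 86.0 and 82.1 in KO, and 196 and 219 in Het. Its replicates lay close together, and the log2 change was -1.57 (SE 0.19, edgeR adjusted p 4.73e-09). Regions of 93, 212, 821, 1043 and 2026 codons had log2 changes of -1.44, -1.79, -1.78, -1.63 and -1.47. Footprint changes at 212 and 821 codons, -0.16 and 0.19, were not called. Those at 93, 585, 1043 and 2026 codons, -0.83, -0.82, -0.88 and -0.58, were called lower. Raw counts of WT and KO overlapped at 93, 1043 and 2026 codons, and not at 212, 585 and 821. At 93 codons they were 50 and 44 against 33 and 53, and at 2026 codons 48 and 34 against 38 and 35. At 1043 codons they were 61 and 41 against 36 and 45. The region of 2026 codons had 124 and 102 CPM in WT and 48.8 and 37.3 in KO, and Het at 58.0 and 37.5 lay near KO. The region of 1043 codons had 158 and 123 CPM in WT and 46.2 and 48.0 in KO, and Het at 114 and 138 lay near WT. Het levels thus stood at different points between the homozygotes in different units. In the shortest class, a region of 74 codons had a log2 change of -0.65 (SE 0.23, edgeR adjusted p 0.0348), a call that was lost in 8 of the 11 alternatives in which it was tested, DESeq2 and each left-out library among them. Its raw counts were higher in KO, at 68 and 70, than in WT, at 49 and 39. Its footprints were called lower, with a log2 change of -0.83.

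**Figure D5:**
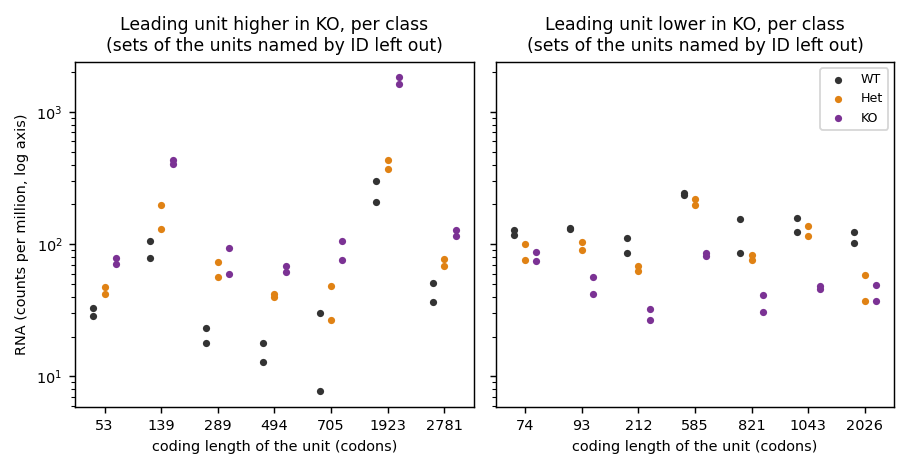
RNA in CPM (y axis, log scale) is plotted for each library of WT, Het and KO for the unit that leads the higher calls (left) and the lower calls (right) of each length class once the joined sets of the 4 units named by ID are left out, labelled by coding length in codons. KO and WT points do not overlap in any unit, as the choice of units required, and among the plotted units the largest fold is that of the 1923-codon region, from 301 and 210 CPM in WT to 1640 and 1822 in KO.

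The 3 most abundant higher and 3 most abundant lower units per codon, chosen after their values were seen and leaving out joined sets already described, were all short. A ranking per codon favours short regions: the median length was 258 codons in the highest class of CPM per codon and 968 in the lowest. A region of 191 codons fell from 4393 and 4116 CPM in WT to 1973 and 2109 in KO, with 2819 and 3057 in Het. This was a log2 change of -1.11 (SE 0.12, edgeR adjusted p 9.32e-11). Its footprints had a log2 change of 0.03 that was not called. Regions of 206 and 212 codons had log2 changes of -1.19 and -1.06. The 206-codon region had 1211 and 1567 CPM in WT and 575 and 681 in KO. Its footprints were few beside its RNA, at 9.18 ± 1.37 CPM in WT and 8.28 ± 0.58 for KO (SD, n = 2), with a log2 change of -0.08 that was not called. The 212-codon region had 1063 and 862 CPM in WT and 493 and 464 in KO. In all 3 both Het libraries lay between the WT and KO ranges. In raw counts the 191-codon region had 1694 and 1371 in WT and 1538 and 1978 in KO. The 206-codon region had 467 and 522 against 448 and 639, and the 212-codon region 410 and 287 against 384 and 435. Raw WT and KO counts thus overlapped in all 3. These falls appear only after scaling by library depth. With RNA libraries thinned to the smallest total, the log2 changes were -1.06, -1.19 and -1.03 at 191, 206 and 212 codons, and the calls were kept. Thinning evens out the totals as scaling does, so the part of depth in these falls was not tested further.

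The most abundant higher units changed less. A region of 168 codons had 775 and 838 CPM in WT and 1324 and 1187 in KO, a log2 change of 0.59 (SE 0.13, edgeR adjusted p 0.000674). A region of 122 codons had 615 and 685 CPM in WT and 1042 and 917 in KO, a log2 change of 0.54. The 168- and 122-codon regions ranked the 6 RNA-seq libraries in the same order, with near-parallel levels. Their footprint log2 changes, 0.18 and 0.16, were not called. They fell in different joined sets, but whether they share reads was not tested, so they may not be separate findings. A region of 102 codons had 825 and 946 CPM in WT and 1119 and 1481 in KO, a log2 change of 0.51. These rises were smaller than the falls of the abundant lower units. The call of the 122-codon region was lost without the deeper WT library, and that of the 102-codon region without the deeper WT or the deeper KO library.

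Footprints on the called units, measured in libraries with the same organoid numbers, were set beside their RNA. The units were chosen for their RNA change, so their RNA medians are large by selection and the sizes in the 2 assays are not compared. In that assay edgeR called 25.6% of 33221 units. Among the 1000 higher units the median footprint log2 change was 0.11, and 308 were also called higher in footprints, against 11.4% of all units tested in that assay. Among the 1058 lower units that could be tested, the median was -0.29 and 471 were also called lower, against 14.2%. Both of these shares are over all 33221 units, of which only 12158 were also tested for RNA. The share called in footprints among those 12158 was not taken, so the excess does not measure how far the assays agree. The median footprint change of lower units was -0.83 in the class of 1 to 90 codons and -0.38 at 2000 codons or more. Among the 94 higher units with under 400 codons and 120 counts or more it was 0.10, and 28 were also called higher in footprints. For lower units of 1000 to under 2000 codons the median was -0.31, with 127 of 262 called.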

How the data were processed

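RNA-seq libraries were made with a stranded kit, per the labels' protocols. The authors deposited raw counts per transcript coding region, 1 headerless table per library, whose columns are a transcript ID, a length and the count. The deposited length, the same in all libraries, is of another, unnamed unit and was read as coding length in codons. It ran from -9 to 35381; the 211773 rows without one and the 179 rows at 0 or less held no counts. CASAVA 1.8, cutadapt 3.7, UMI-tools 1.1.2, STAR 2.7.0a and the build mm39 are named in the submitters' processing notes. The counting tool, annotation and strand setting are not given in the sources used here, so values of overlapping, antisense or near-identical genes are uncertain.

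The 6 RNA-seq libraries were fitted together with edgeR 4.0.16 in R 4.3.3 (TMM scaling, filterByExpr by genotype, quasi-likelihood F test, Benjamini-Hochberg adjustment, 3 residual degrees of freedom), with the contrast of KO and WT. The 6 ribosome profiling libraries, with 4828528 to 22546451 counts each, were fitted in the same way. Standard errors were computed as the absolute log2 change over the root of the F statistic. All tests are two-sided. Length classes, classes of CPM per codon and classes of mean count used means over all 6 RNA-seq libraries. Joined sets link a row to those of the following 25 counted rows whose profile over the 12 libraries matched. Library shares were compared by an exact permutation test (scipy 1.17.1). The code was tested on simulated data. Units named by ID were the first 2 higher and first 2 lower by the rule given with them; the leading unit of each length class followed the same rule after joined sets already named were left out. The alternatives were DESeq2 1.42.0, other scaling, filters, samples, units and depth, a minimum size of change, and each library left out. The members, classes and lists were chosen with earlier results of these data known. The planned gene lists and cell type markers were not used, since no table used here pairs transcripts with genes.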

Additional observations from a re-analysis of the deposited data

How the results depend on the processing

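A change of over 1.5 times was taken as a move for a count, and for a correlation or length difference a change of more than the spread between libraries. Against 2153 calls, DESeq2 gave 607, 1 row per joined set 1155, thinning 1348 and a minimum log2 change of 1 gave 1196; leaving out 1 library gave 1016 to 1494. Against a rho of -0.07 with coding length, the value was -0.141 without the count filter, -0.0243 with at least 10 counts in every WT and KO library and -0.0587 with 1 row per joined set, and with 1 library left out it ran from -0.0908 to -0.0570. The rho with CPM per codon was 0.0794 without the filter, 0.130 with the minimum of 10 counts, -0.0186 with thinning and -0.0527 in units with at least 20 footprints in each ribosome profiling library, an alternative chosen after seeing the data; with 1 library left out it ran from -0.00464 to 0.0555. The KO minus WT difference in weighted mean log2 length was -0.0562 with 1 row per joined set and -0.0627 with the minimum of 10 counts. The joined sets and the size minimum leave fewer units by construction; for the rest the cause was not tested. No value changed direction among the single units; 258 of their values kept the call and 14 lost it. No paired analysis was possible because the WT, KO and Het groups share no organoid number. The alternative with 1 unit per gene was not run, since transcripts are not paired with genes. Depth limits the comparison: with a mean under 15 counts, the smallest called change was 1.14 on the log2 scale.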
